A study of Mus musculus with 18 samples.

Results

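The calcium exporters of the plasma membrane fall into a pair of gene families, and all 7 of their genes were read here: the sodium-calcium exchanger genes Slc8a1, Slc8a2 and Slc8a3, and the calcium pump genes Atp2b1, Atp2b2, Atp2b3 and Atp2b4. They were taken by gene symbol from a table of 43346 genes, and each symbol matched 1 row. The set was built around Slc8a3, which was selected on its RNA difference between the arms, so its RNA values are a description with no test. The other 6 genes were taken as its relatives and partners in calcium export.

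The cells were MC3T3-E1 subclone 4, a clonal line of C57BL/6 mouse calvaria pre-osteoblasts, at passage 9, and RNA, H3K27me3 and H3K4me3 were assayed in them. Both arms were kept in osteogenic medium, which holds ascorbic acid and β-glycerol phosphate, for 3 days. The treated arm was given 2.5 µM EPZ6438, an inhibitor of EZH2, the enzyme that methylates histone H3 at lysine 27, and the vehicle arm was given 0.25% DMSO. The labels do not say whether the EPZ6438 arm also held DMSO. There were 3 RNA libraries per arm, and for each mark 1 merged peak list per arm. All samples come from 1 clonal line. Nothing says that the libraries of an arm came from different cultures, so each p reflects only the spread among these libraries, which may be technical.

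Calcium that enters the cytosol has to be pumped back out or into stores. Exchangers of the Slc8 family (NCX proteins) carry calcium out against sodium that flows in, with high capacity and lower affinity, whereas the Atp2b pumps (PMCA proteins) spend ATP to export calcium with high affinity. In osteoblasts the exchangers are known from the membrane that faces the mineralizing matrix. H3K27me3 is a mark of genes silenced by Polycomb, and H3K4me3 a mark of active or poised promoters.

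The RNA libraries held 18807156 to 25365513 reads in genes, and 14213 genes passed the filter of at least 10 reads in at least 3 libraries. With limma, 540 of these genes rose (3.80%) and 461 fell (3.24%) in EPZ6438 relative to DMSO at an adjusted p under 0.05, and in 26.7% the ranges of the arms did not overlap. Together these are 1001 calls, which became 381, 372 and 309 without EPZ6438 replicates 1, 2 and 3 and 335 without DMSO replicate 2. The osteoblast markers Runx2, Sp7, Alpl, Ibsp, Col1a1, Col1a2, Bglap and Spp1 were all detected in both arms. Of these 8, 5 rose (Runx2, Sp7, Alpl, Ibsp and Bglap) and Spp1 fell. The part of this shift in the values of the exporters was not tested. In RNA from whole cultures, more cells of a type and more RNA per cell cannot be told apart.

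Promoter sequences show how unlike the starts of these genes are. They are given for the 2 exchanger genes that had an H3K27me3 peak within 1 kb of the tabulated start in DMSO and for the most abundant pump gene, which had H3K4me3 there in both arms. Each runs 5′ to 3′ from 250 bases before to 50 bases past the RefSeq start (build GRCm38.p6), with CpG dinucleotides in capitals. The Slc8a3 sequence lies at chr12:81333131-81333430 on the minus strand, the Slc8a2 sequence at chr7:16129576-16129875 on the plus strand and the Atp2b1 sequence at chr10:98914902-98915201 on the plus strand.
Slc8a3: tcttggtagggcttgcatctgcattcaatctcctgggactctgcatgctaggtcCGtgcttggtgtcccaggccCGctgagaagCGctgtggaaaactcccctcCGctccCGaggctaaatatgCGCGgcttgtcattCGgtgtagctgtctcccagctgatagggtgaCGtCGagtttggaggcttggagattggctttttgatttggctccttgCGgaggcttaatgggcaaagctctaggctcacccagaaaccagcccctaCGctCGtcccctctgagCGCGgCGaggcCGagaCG
Slc8a2: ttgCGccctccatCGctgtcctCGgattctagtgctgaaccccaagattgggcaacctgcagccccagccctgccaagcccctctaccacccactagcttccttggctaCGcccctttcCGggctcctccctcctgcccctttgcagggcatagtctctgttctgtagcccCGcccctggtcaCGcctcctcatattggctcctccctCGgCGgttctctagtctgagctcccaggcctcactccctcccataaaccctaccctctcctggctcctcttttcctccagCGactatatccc
Atp2b1: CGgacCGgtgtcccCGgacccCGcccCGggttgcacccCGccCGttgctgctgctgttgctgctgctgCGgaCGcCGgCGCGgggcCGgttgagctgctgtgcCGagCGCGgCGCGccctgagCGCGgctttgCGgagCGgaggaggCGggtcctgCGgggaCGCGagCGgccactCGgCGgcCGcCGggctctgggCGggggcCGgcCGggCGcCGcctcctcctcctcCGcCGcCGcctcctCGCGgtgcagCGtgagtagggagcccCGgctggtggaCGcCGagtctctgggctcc
The Slc8a3 window holds 18 CpG dinucleotides, the Slc8a2 window 10 and the Atp2b1 window 45, against a median of 7 over 32851 RefSeq promoters of this length. Of those promoters, 28.1% hold more CpG than Slc8a3, 41.4% more than Slc8a2 and 1.65% more than Atp2b1. The GC box GGGCGG, read on both strands, occurs 3 times in the Atp2b1 window, once in the Slc8a2 window and 0 times in the Slc8a3 window, and is present in 35.7% of all promoters. The CCAAT box, read on both strands, occurs 1 time in the Slc8a3 window and 2 times in the Slc8a2 window, and is present in 37.4% of all promoters. Atp2b1 has a further RefSeq start, at chr10:98914642, whose window is not shown and holds 54 CpG dinucleotides and 4 GC boxes. These matches describe the letters only.

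Among the exchangers, Slc8a3 was the gene with the large difference. Slc8a3 (ENSMUSG00000079055, chr12:81197915-81333180, mm10) encodes NCX3, an exchanger best known from brain and skeletal muscle and also found in osteoblasts. It was at 8.93, 9.59 and 8.87 RPKM in EPZ6438, against 0.847, 0.827 and 0.739 RPKM in DMSO. RPKM scales reads by gene length and by library size. The arms are far apart, and within each arm the 3 libraries are close. These levels rest on 1002, 1234 and 947 reads in EPZ6438 and on 85, 98 and 100 reads in DMSO. The log2 change of RPKM + 0.1, EPZ6438 minus DMSO, was 3.35 (SE 0.12), which ranked 2 among the 14213 tested genes. Because Slc8a3 was selected on this difference, no p is given.

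Slc8a1 (ENSMUSG00000054640), which encodes NCX1, the widely expressed exchanger that is the main one of the heart, was lower in EPZ6438. It was at 0.712, 0.635 and 1.00 RPKM in EPZ6438, against 1.65, 1.36 and 1.38 RPKM in DMSO. All 3 EPZ6438 values lie below all 3 DMSO values, and the arms of 26.7% of all tested genes do not overlap. It fell by 0.84 on the log2 scale (SE 0.20, limma adjusted p = 0.0487), just inside the threshold. The call did not hold when any 1 of the 6 libraries was left out (limma adjusted p 0.0547 to 0.158), without the filter on low counts (0.156) or at a pseudocount of 0.01 RPKM (0.0530), while the log2 change with a library left out stayed between -1.01 and -0.72. The level rests on 148 reads in all in EPZ6438 and 283 in DMSO, over a gene model of 2934 bases that ends 88780 bp short of the RefSeq start of this gene.

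Slc8a2 (ENSMUSG00000030376), which encodes NCX2, an exchanger of the brain, was close to absent in both arms. It had 2, 11 and 8 reads in EPZ6438, against 0, 8 and 6 reads in DMSO, which did not pass the filter. The arms overlap and no test was made.

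**Figure D1:**
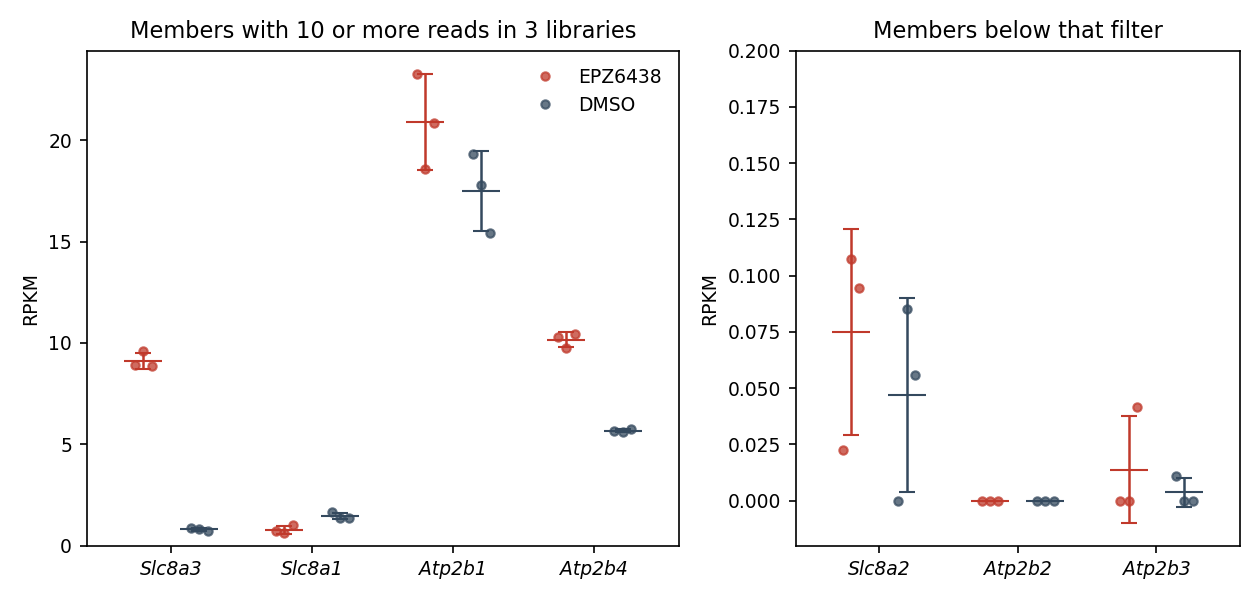
RPKM of the 7 exporter genes in the 3 EPZ6438 libraries (red, left) and the 3 DMSO libraries (grey, right) as points, with the mean as a bar and the SD as an error bar. The left panel has the 4 genes that passed the filter, and Slc8a3 averages 9.13 RPKM in EPZ6438 and 0.805 RPKM in DMSO. The right panel has the 3 genes below it, on an axis that ends at 0.2 RPKM.

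The exchanger with the larger share of the family's RPKM differed between the arms. Slc8a3 made up 91.4 ± 2.10% of the summed Slc8 RPKM in EPZ6438 and 34.7 ± 1.38% in DMSO (SD, n = 3 each). Slc8a1 made up 7.86 ± 2.01% in EPZ6438 and 63.2 ± 3.07% in DMSO. In every EPZ6438 library the RPKM of Slc8a3 was above that of Slc8a1, and in every DMSO library it was below. In DMSO both genes had 283 reads in all, so their order there rests on gene length. The gene model has 2934 bases for Slc8a1 and 5332 for Slc8a3, and that of Slc8a1 ends 88780 bp short of its RefSeq start. The ratio of Slc8a3 to Slc8a1 RPKM was 12.2 ± 3.15 in EPZ6438 and 0.551 ± 0.0483 in DMSO. Summed over the 3 exchangers, RPKM was 9.99 ± 0.333 in EPZ6438 and 2.32 ± 0.163 in DMSO. These shares and sums include Slc8a3 and are a description.

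**Figure D2:**
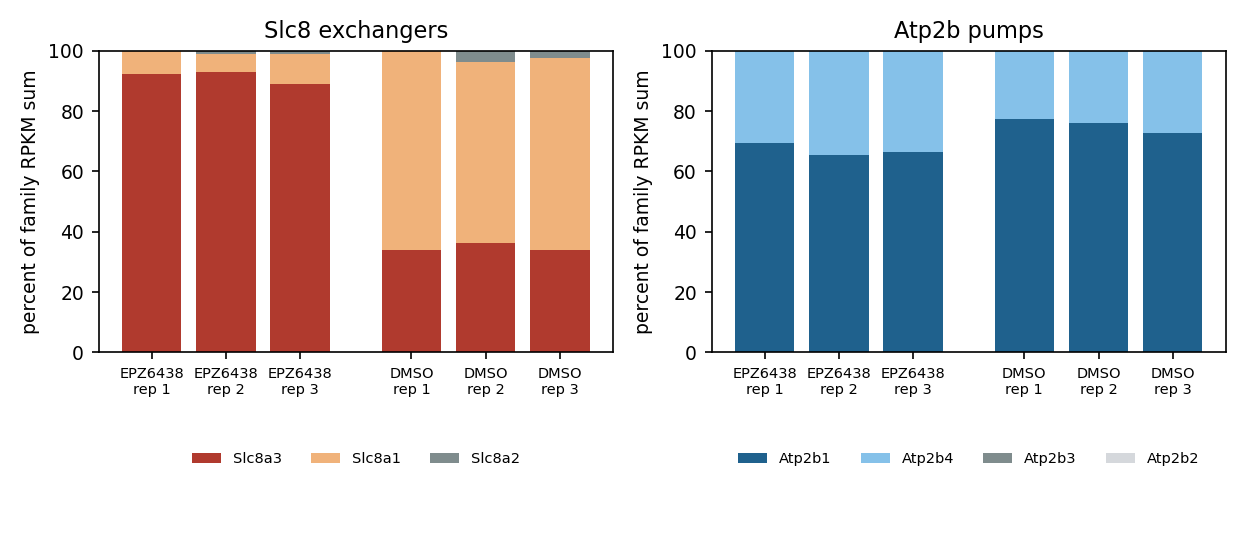
Share of each gene in the summed RPKM of its family, in percent, for each of the 3 EPZ6438 libraries (left) and 3 DMSO libraries (right), for the Slc8 exchangers and the Atp2b pumps. Slc8a3 is the larger share in EPZ6438 and Slc8a1 in DMSO, while Atp2b1 is the larger share of the pumps in all 6 libraries.

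Among the pumps, Atp2b4 rose and Atp2b1 did not pass the test. Atp2b4 (ENSMUSG00000026463), which encodes PMCA4, a widely expressed pump, was at 10.3, 9.74 and 10.4 RPKM in EPZ6438, against 5.64, 5.60 and 5.75 RPKM in DMSO. The arms are apart by far more than the spread within them. The log2 change was 0.83 (SE 0.09, limma adjusted p = 0.00255), and 2.93% of tested genes had a higher one. The call held with every library left out in turn (limma adjusted p 0.00503 to 0.0295).

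Atp2b1 (ENSMUSG00000019943), which encodes PMCA1, the pump found in most cell types, was the most abundant exporter gene in all 6 libraries. It was at 23.3, 18.6 and 20.9 RPKM in EPZ6438, against 19.3, 17.8 and 15.4 RPKM in DMSO. The arms overlap, since the second EPZ6438 library lies below the first DMSO library. The log2 change was 0.26 (SE 0.12, limma adjusted p = 0.292).

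Atp2b2 (ENSMUSG00000030302), which encodes PMCA2, a pump of neurons and of the hair cells of the inner ear, had 0 reads in all 6 libraries. A count of 0 allows up to 3 reads, which is 0.0110 to 0.0148 RPKM for this gene, and this limit covers counting error only. Atp2b3 (ENSMUSG00000031376), which encodes PMCA3, known mostly from brain, had 0, 0 and 4 reads in EPZ6438 and 1, 0 and 0 reads in DMSO. Neither gene could be tested.

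Of the 7 genes, 4 passed the filter, and of the 3 of these that were tested Atp2b4 rose and Slc8a1 fell (3.80% and 3.24% of all tested genes), the call of Slc8a1 holding in 5 of 14 alternatives. In EPZ6438 the order of levels was Atp2b1, Atp2b4, Slc8a3, Slc8a1, Slc8a2, Atp2b3 and Atp2b2. In DMSO it was the same except that Slc8a1 stood above Slc8a3, with the same reads in all over a shorter gene model. The ranges of neighbours in these orders do not overlap down to Slc8a2, and those of Slc8a2, Atp2b3 and Atp2b2 do. Exchangers made up 24.4 ± 2.20% of the summed RPKM of all 7 genes in EPZ6438 and 9.10 ± 0.230% in DMSO (SD, n = 3 each). The 4 pumps summed to 31.1 ± 2.64 RPKM in EPZ6438 and 23.2 ± 1.91 RPKM in DMSO.

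Several other genes lie inside or beside these loci. The antisense gene Gm3693 lies inside Slc8a3 and was at 0.0169 ± 0.0166 RPKM in EPZ6438 and 0.0350 ± 0.0185 RPKM in DMSO. The counting is not stated to use strand, so its reads and those of Slc8a3 cannot be told apart. Beside Atp2b4, the lymphocyte adapter gene Lax1 was at 0.621 ± 0.168 RPKM in EPZ6438 and 0.279 ± 0.0298 RPKM in DMSO (log2 change 0.90, SE 0.22, limma adjusted p = 0.0531). The secretory coat gene Sec13 beside Atp2b2 was at 300.6 ± 18.2 RPKM in EPZ6438 and 232 ± 20.0 RPKM in DMSO (limma adjusted p = 0.0587). The matrix proteoglycan gene Bgn beside Atp2b3 was at 277 ± 9.02 RPKM in EPZ6438 and 318 ± 8.81 RPKM in DMSO (limma adjusted p = 0.161). Gm11096 inside Slc8a1, and Gm15082 and Gm15083 at Atp2b2, had 0 reads. Inside Atp2b4, which was at several RPKM, the short gene Mir6903 was at 0.178 ± 0.308 RPKM in EPZ6438 and 0.653 ± 0.780 RPKM in DMSO, and neither it nor RP23-18J18.1 passed the filter.

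Among other genes of calcium handling, Atp2a3 and Cacna1c rose. Of 64 such genes in 10 lists, 32 passed the filter, 2 rose and 0 fell (3.80% and 3.24% of all tested genes), and their median log2 change was -0.04, against -0.03 over all tested genes. Atp2a3, which encodes the store pump SERCA3, was at 0.540, 0.682 and 0.425 RPKM in EPZ6438, against 0.151, 0.111 and 0.216 RPKM in DMSO (log2 change 1.32, SE 0.24, limma adjusted p = 0.0201). Cacna1c, the pore of the main L-type calcium channel, was at 2.51, 2.18 and 2.62 RPKM in EPZ6438, against 1.48, 1.57 and 1.59 RPKM in DMSO (log2 change 0.62, SE 0.13, limma adjusted p = 0.0369). Neither gene's arms overlap, which holds for 26.7% of all tested genes. Neither call held without EPZ6438 replicate 1, 2 or 3 or without DMSO replicate 2, and that of Cacna1c did not hold without any 1 library. Without the filter on low counts, Atp2a3 and Cacna1c did not pass either (limma adjusted p = 0.0868 and 0.107).

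In the lists with no call, the most abundant members did not pass the test. Basigin (Bsg), a subunit that pairs with the Atp2b pumps, was at 227 ± 8.79 RPKM in EPZ6438 and 229 ± 18.2 RPKM in DMSO. Slc24a3, a potassium-dependent sodium-calcium exchanger, was at 10.3 ± 0.364 RPKM in EPZ6438 and 10.7 ± 0.752 RPKM in DMSO. Itpr1, a calcium release channel of the stores, was at 27.1 ± 0.723 RPKM in EPZ6438 and 26.4 ± 1.23 RPKM in DMSO. Stim1, the calcium sensor of the stores, was at 9.51 ± 0.385 RPKM in EPZ6438 and 10.0 ± 0.515 RPKM in DMSO. For these 4 genes the limma adjusted p was 0.963, 0.805, 0.811 and 0.704 in the order given. Trpm7, Smdt1 and Calm2, for an entry channel, a mitochondrial uniporter subunit and calmodulin, likewise did not pass (limma adjusted p = 0.789, 0.894 and 0.383). Atp1b3, a sodium pump subunit, was at 47.0 ± 2.87 RPKM in EPZ6438 and 46.6 ± 6.30 RPKM in DMSO (limma adjusted p = 0.948).

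**Figure D3:**
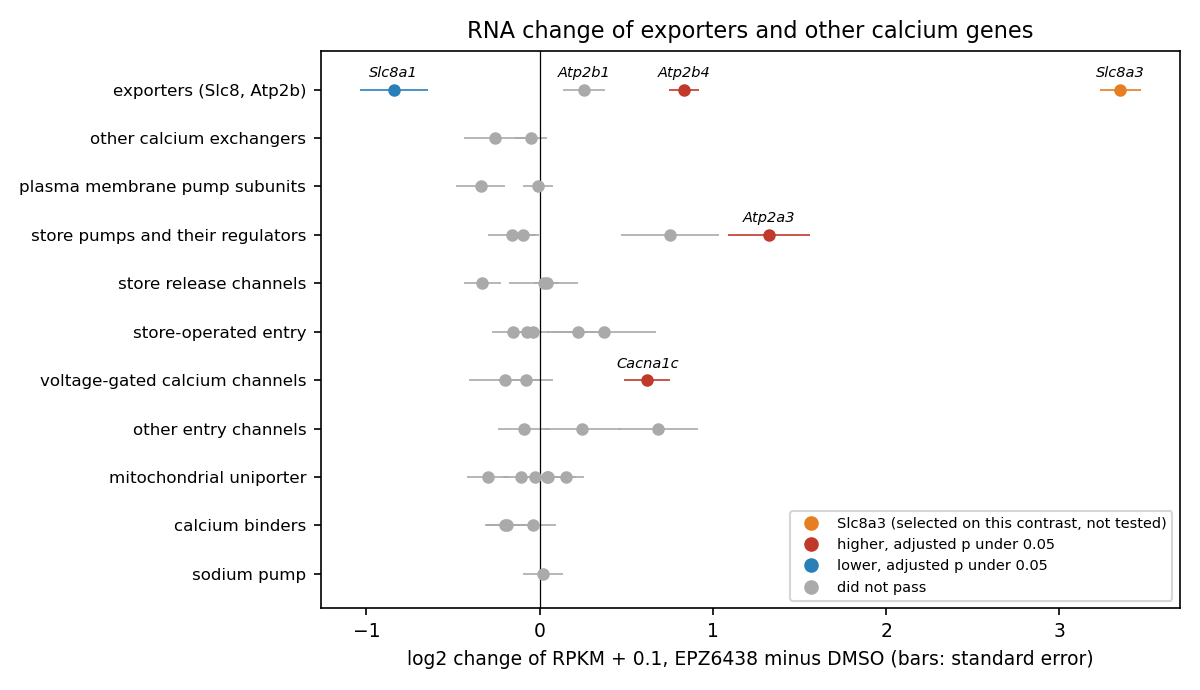
Log2 change of RPKM + 0.1, EPZ6438 minus DMSO, with its standard error, for the 4 exporter genes that passed the filter (top row) and the 32 tested genes of the 10 calcium lists. Slc8a3 lies at 3.35, beyond every other gene plotted, and was selected on this contrast.

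Markers of neurons and skeletal muscle, in which Slc8a3 is known, and of cardiac muscle were low. Of 6 neuron genes, 1 passed the filter, and their summed level was 1.14 to 1.61 RPKM in EPZ6438 and 1.19 to 1.60 RPKM in DMSO, with Rbfox3 at 0 in all libraries. Gap43, a neuron gene below the filter, was at 0.342 ± 0.158 RPKM in EPZ6438 and 0.0516 ± 0.0229 RPKM in DMSO. Of 6 skeletal muscle genes, 2 passed, and the sum was 2.41 to 2.88 RPKM in EPZ6438 and 1.55 to 1.91 RPKM in DMSO, so these sums do not overlap. Their part in the Slc8a3 values was not tested. The defining muscle regulators Myod1 and Myog were at 0 in all 6 libraries, and neither Acta1 nor Mylpf, structural muscle genes, passed the test (limma adjusted p = 0.140 and 0.102). Of 5 cardiac genes 4 had 0 reads in every library, and the sum was 0.0258 to 0.0368 RPKM in EPZ6438 and 0.00508 to 0.0290 RPKM in DMSO.

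The genes with RNA profiles nearest to Slc8a3 were the homeobox gene Hoxb13, the heparanase gene Hpse, the surface glycoprotein gene Cd200, Ifitm5 and the serotonin transporter gene Slc6a4. Likeness was the root-mean-square difference over the 6 libraries between profiles of log2(RPKM + 0.1) centred on the DMSO mean. It was 0.122 for Hoxb13, 0.171 for Hpse, 0.227 for Cd200, 0.239 for Ifitm5 and 0.364 for Slc6a4. Their log2 changes were 3.21, 3.25, 3.27, 3.22 and 2.86 in that order. With only the EPZ6438 and DMSO arms, such likeness mostly means a change of about the size on which Slc8a3 was selected. The list is a description. Ifitm5, a membrane protein gene of osteoblasts, was the most abundant of them at 64.8 ± 8.97 RPKM in EPZ6438 and 6.88 ± 1.27 RPKM in DMSO. Hoxb13 was at 1.16 ± 0.113 RPKM in EPZ6438 and 0.0356 ± 0.0158 RPKM in DMSO, where it had 2, 2 and 1 reads. This DMSO level lies below the 0.1 RPKM added, so the likeness of Hoxb13 depends on that setting. The DMSO levels of Slc6a4 and Cd200, at 0.109 and 0.153 RPKM, are close to 0.1 RPKM, so their likeness depends on it too.

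The histone marks over these genes were compared as peak counts and covered length in a window of each gene plus 10 kb on both sides. The merged lists carry no replicate error, so no test was made. The whole EPZ6438 list for H3K27me3 had 20764 peaks over 11.6 Mb, and the DMSO list had 143399 peaks over 89.4 Mb. Over the 7 genes there were 36 H3K27me3 peaks in EPZ6438 and 114 in DMSO. Atp2b2 held 32 of the EPZ6438 peaks and 84 of the DMSO peaks, and without it the other 6 genes held 4 in EPZ6438 and 30 in DMSO. An H3K27me3 peak lay over 4 of the 7 genes in EPZ6438 (21.3% of protein-coding genes) and over 7 of 7 in DMSO (64.1%). These shares take no account of window length, which ran from 50.2 kb for Slc8a2 to 317 kb for Atp2b2. In DMSO the peaks covered 0.505% of the window of Slc8a1, 0.128% of Atp2b1 and 0.677% of Atp2b3. These lie below the median of 1.09% over protein-coding genes, and the other members lie above it.

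Slc8a3 had 1 H3K27me3 peak in EPZ6438 and 13 in DMSO. These covered 0.498% of the window in EPZ6438 and 4.17% in DMSO, against means over all protein-coding genes of 0.569% in EPZ6438 and 4.17% in DMSO. The EPZ6438 peak, chr12:81284566-81285339, lies inside a DMSO peak, chr12:81284446-81285395, about 47.8 kb downstream of the start, so no EPZ6438 peak lay outside the DMSO positions. The widest DMSO peak was chr12:81311323-81312419 (1097 bp), about 20.8 kb downstream. The medians over those genes were lower, at 0% in EPZ6438 and 1.09% in DMSO, and 17.3% of genes in EPZ6438 and 29.9% in DMSO had more coverage than Slc8a3. Of the genes with the nearest RNA profiles, Hpse had 2 peaks in EPZ6438 and 13 in DMSO, Cd200 had 0 in EPZ6438 and 7 in DMSO, and Slc6a4 had 0 in EPZ6438 and 13 in DMSO. Hoxb13 had 7 in EPZ6438 and 6 in DMSO, and Ifitm5 had 0 in both.

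Slc8a2 had 2 peaks in EPZ6438 and 8 in DMSO, covering 1.10% of its window in EPZ6438 and 11.1% in DMSO. Its widest DMSO peak, chr7:16165406-16166926 (1521 bp), lies beyond the 3′ end of the gene. Kptn, the actin-binding protein gene before its 5′ end, did not pass the RNA test (limma adjusted p = 0.440). Slc8a1 had 0 peaks in EPZ6438 and 3 in DMSO, the widest chr17:81449656-81450415 (760 bp). Atp2b1 had 0 peaks in EPZ6438 and 1 in DMSO, chr10:98963317-98963484 (168 bp). Atp2b4 had 1 peak in EPZ6438 and 3 in DMSO, all upstream of its start, the widest chr1:133804287-133805334 (1048 bp). Atp2b3 had 0 peaks in EPZ6438 and 2 in DMSO, the widest chrX:73549900-73550251 (352 bp).

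Atp2b2, with 0 reads in every RNA library, had the most H3K27me3 of the 7 genes in both arms. Its 32 EPZ6438 peaks covered 6.06% of the window and its 84 DMSO peaks 18.2%, the widest DMSO one being chr6:113753280-113756763 (3484 bp). An EPZ6438 peak touched 26 of the 84 DMSO peaks. For the other 6 genes together the number was 4 of 30. Over the whole list 10.8% of DMSO peaks were overlapped, and on chromosome 6, where Atp2b2 lies, the share was 14.1%. The mean coverage over genes of chromosome 6 was 1.17% in EPZ6438 and 6.04% in DMSO, above that of other autosomes at 0.566% in EPZ6438 and 4.26% in DMSO. The part of the chromosome in the values of Atp2b2 was not tested.

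**Figure D4:**
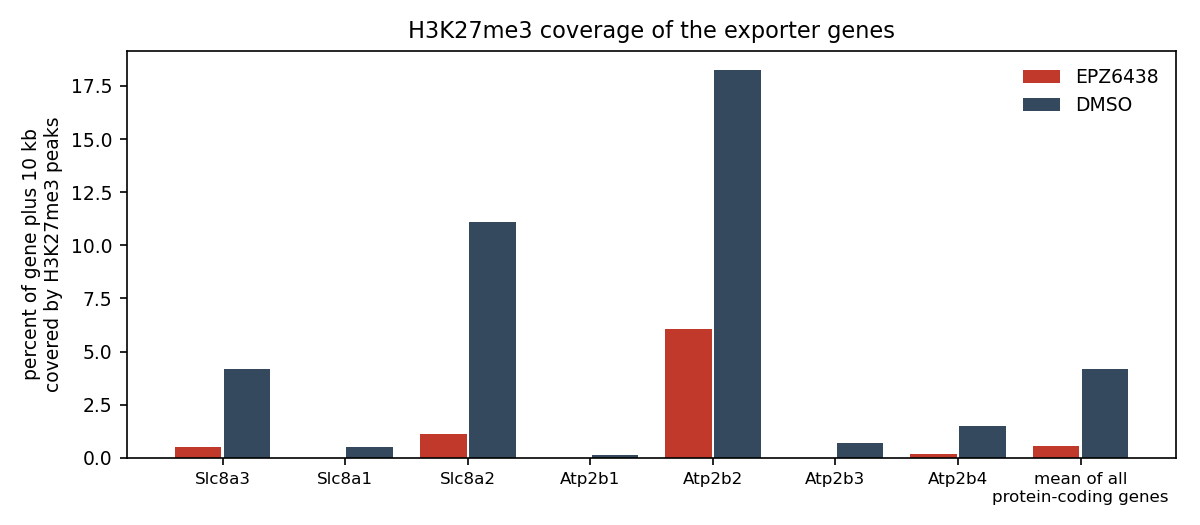
Percent of each exporter gene plus 10 kb covered by H3K27me3 peaks in the EPZ6438 list (red, left) and the DMSO list (grey, right), with the mean over all protein-coding genes at the right end. Atp2b2 has 6.06% in EPZ6438 and 18.2% in DMSO, and Slc8a3 has 0.498% in EPZ6438 and 4.17% in DMSO.

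H3K4me3 peaks over the 7 genes numbered 5 in EPZ6438 and 20 in DMSO, of which Atp2b2 held 1 in EPZ6438 and 12 in DMSO. Among peaks of at least 400 bp the direction turned, with 3 in EPZ6438 and 1 in DMSO. A peak lay over 3 of 7 genes in EPZ6438 (51.7% of protein-coding genes) and over 6 of 7 in DMSO (61.1%). The one EPZ6438 peak in the Atp2b2 window, chr6:113739614-113740665, lies past the end of the gene, inside Sec13. The DMSO peaks chr6:113739808-113740022 and chr6:113740361-113740538 lie inside it. Each other DMSO H3K4me3 peak of that window overlaps a DMSO H3K27me3 peak, and the widest has 259 bp. The whole H3K4me3 lists had 16216 peaks in EPZ6438 and 40113 in DMSO, so the lower number in EPZ6438 is not particular to these genes. Over the whole lists the median H3K4me3 peak was 401 bp wide in EPZ6438 and 212 bp wide in DMSO.

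At the tabulated gene starts, H3K4me3 lay at 2 of the 4 pump genes and at 0 of the 3 exchanger genes. Atp2b1 and Atp2b4 had an H3K4me3 peak within 1 kb of the start in both arms, where 42.6% of protein-coding starts did in EPZ6438 and 32.2% in DMSO. For Atp2b4 the RefSeq span begins 18 bp from the tabulated start. The start of its listed RefSeq promoter lies 47294 bp inside the gene. From there the nearest H3K4me3 peak was 46741 bp away in EPZ6438 and 47045 bp away in DMSO. The DMSO peak at its tabulated start is 251 bp wide and is lost among peaks of at least 400 bp. The peak at the Atp2b1 start was 1165 bp wide in EPZ6438 and 734 bp in DMSO, and it covers the CpG-rich sequence shown above in part. Slc8a3 had no H3K4me3 peak within 1 kb of its start in either arm, the nearest lying 150403 bp away in EPZ6438 and 10303 bp away in DMSO. Its mean RNA level in EPZ6438, on which it was selected, was 9.13 RPKM, and that of Atp2b4, which had such a peak, was 10.2 RPKM. The lists hold called positions only, so a start without a peak is not shown to lack the mark. An H3K27me3 peak lay within 1 kb of no member's tabulated start in EPZ6438 (2.40% of starts) and of those of Slc8a3 and Slc8a2 in DMSO (11.4%). Atp2b2 has 2 RefSeq starts inside the tabulated gene that lie on a DMSO H3K27me3 peak, and 1 of these is 525 bp from an EPZ6438 peak. From the start of the listed RefSeq promoter of Slc8a2, 474 bp before the tabulated one, the DMSO H3K27me3 peak is 1400 bp away. The RefSeq span of Slc8a2 begins 2708 bp before the tabulated start. The nearest H3K27me3 peak to the Slc8a3 start was 47841 bp away in EPZ6438 and 782 bp away in DMSO, where it lay at chr12:81331849-81332398, downstream of the sequence shown above. No member had both marks within 1 kb of its tabulated start in DMSO, as 1.90% of starts did. The start of Atp2b3 could not be placed, since its strand is not given in the tables used here, and no H3K4me3 peak lay within 10 kb of either end.

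The tabulated start of Slc8a1 lies inside the gene, 88780 bp downstream of its RefSeq start. Over the RefSeq span plus 10 kb it had 1 H3K27me3 peak in EPZ6438 and 8 in DMSO, and 2 H3K4me3 peaks in EPZ6438 and 4 in DMSO. The H3K4me3 peaks chr17:81669528-81670536 in EPZ6438 and chr17:81669632-81670232 in DMSO overlap and lie between the tabulated and the RefSeq start. From the RefSeq start the nearest H3K4me3 peak was 67851 bp away in EPZ6438 and 36889 bp away in DMSO. The other genes kept their H3K27me3 counts over RefSeq spans, except Atp2b4 with 4 in DMSO.

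**Figure D5:**
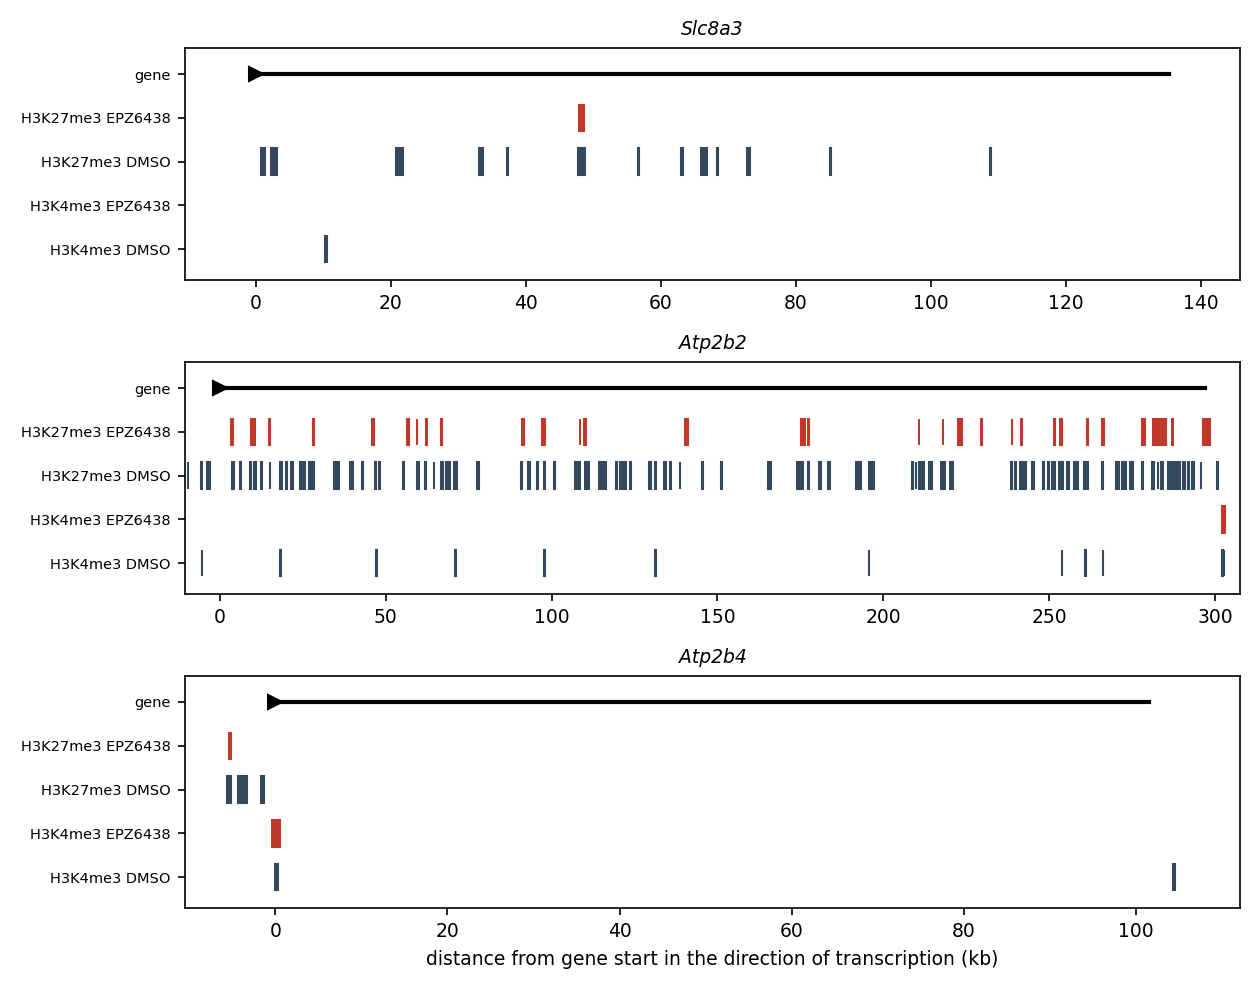
Peaks of the 4 merged lists over Slc8a3, Atp2b2 and Atp2b4, plotted by distance from the gene start in kb in the direction of transcription, with EPZ6438 in red above DMSO in grey for each mark. Slc8a3 has 1 H3K27me3 peak in EPZ6438 and 13 in DMSO, Atp2b2 has 32 in EPZ6438 and 84 in DMSO, and Atp2b4 has H3K4me3 at its start in both arms.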

How the data were processed

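RNA libraries and H3K27me3 and H3K4me3 ChIP libraries were made on day 3, with 2 ChIP libraries per mark and arm, from which the authors deposited 1 merged peak list per mark and arm. The submitters' processing notes name STAR 2.6.1c, Subread, MACS2, HOMER, DiffBind and the build mm10. Per the file headers the authors' gene table holds RPKM, reads scaled by gene length and library size. Whole read numbers were recovered from its steps (100% whole within 0.001). All 37 mitochondrial genes are listed at 0. Genes with at least 10 reads in at least 3 libraries were fitted with limma 3.58.1 (R 4.3.3; trend, two-sided, Benjamini-Hochberg over 14213 genes) on log2(RPKM + 0.1). A fold change on this scale understates that of low genes. The fit was also run on simulated counts with a fixed dispersion and independent libraries. That setting differs from these libraries, so the run does not show how the p values behave here. Peak positions are the authors' deposited intervals, read as zero-based and given one-based, and overlap meant at least 1 bp. The lists hold positions only. Gene spans come from the gene table, and strand, starts and promoter sequences from RefSeq GRCm38.p6, in which 6 of 7 members matched. Python 3.11.15, numpy 2.4.6, pandas 2.3.3 and matplotlib 3.10.9 were used.

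The members and lists were chosen with earlier results of these data known. Genes named beside the 7 members were the called ones of each list (up to 4), or its most abundant member where none was called, the 5 nearest profiles, genes overlapping a member's window, and the widest DMSO H3K27me3 peak of each member. Alternatives were other pseudocounts, filters, scalings, voom, a replicate block, each library left out, other peak windows and widths, and, chosen after seeing the data, RefSeq spans and starts. A gene of the calcium lists is not reported here.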

Additional observations from a re-analysis of the deposited data

How the results depend on the processing

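Atp2b4 kept its call and Atp2b1 stayed without one under all 14 RNA alternatives each (limma adjusted p 0.000417 to 0.0295 for Atp2b4 and 0.173 to 0.532 for Atp2b1). Slc8a1 passed in 5 of 14. Its log2 change was -0.92 at a pseudocount of 0.01 RPKM (limma adjusted p = 0.0530), -0.84 with no filter (0.156) and -0.84 with the replicate block (0.0546), and -1.01 to -0.72 with 1 library left out. Deviations of samples with the same replicate number correlated at 0.410, 0.078 and 0.056 in numbers 1, 2 and 3, not all above 0.1, so the numbers were not taken as pairs. The replicate block gave 1051 calls over all genes, against 1001 without it, ended the call of Cacna1c (limma adjusted p = 0.0605) and brought one of Trpv4. The log2 change of Slc8a3 was 3.49, 2.88 and 2.49 at pseudocounts of 0.01, 0.5 and 1 RPKM, 3.51 with voom and 3.30 to 3.39 with 1 library left out. Calls over all genes numbered 628 with no filter and 309 to 1003 with 1 library left out, and calls in the calcium lists 0 to 1, against 2 with all libraries. With no filter these numbered 1, since Atp2a3 and Cacna1c lost their calls and Atp1b2 gained one. The difference in the Slc8a3 share of exchanger RPKM stayed between 56.0 and 57.9 percentage points. Peaks of at least 400 bp over the 7 genes numbered 17 in EPZ6438 and 63 in DMSO for H3K27me3, and 3 in EPZ6438 and 1 in DMSO for H3K4me3, which turns the direction between the arms. Slc8a3 then had 6 H3K27me3 and 0 H3K4me3 peaks in DMSO. H3K4me3 peaks numbered 2 in EPZ6438 within gene bodies, and with 50 kb to each side 14 in EPZ6438 and 34 in DMSO, with 3 over Slc8a3 in DMSO. Members with a DMSO H3K27me3 peak at the start numbered 0 within 500 bp and 1 with peaks of at least 400 bp, and 1 had H3K4me3 there in DMSO, Atp2b4 being lost. With the starts of listed RefSeq promoters, chosen after seeing the data, 1 gene (Atp2b2, at an inner start) had H3K27me3 in EPZ6438. Slc8a3 and Atp2b2 had it in DMSO. H3K4me3 lay at 1 gene in EPZ6438 and 1 in DMSO, Atp2b4 being lost in both. The listed promoter of Atp2b4 lies 47294 bp inside the gene, while its RefSeq span begins 18 bp from the tabulated start. The cause of these shifts was not tested. Depth limits Slc8a1, Slc8a2 and Atp2b3, and the peak lists carry no replicate error.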
